A study of Homo sapiens with 4 samples.

Results

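The 10 genes described here are NR5A1, which encodes SF-1, 8 genes of steroid production (STAR, CYP11A1, HSD3B2, CYP17A1, CYP21A2, CYP11B1, CYP11B2 and CYP19A1) and MC2R, which encodes the receptor for ACTH. They were taken from a fixed list of names among the 20163 protein-coding genes of the GENCODE annotation on hg19, and the rule for membership uses no measured value. For each gene the deposited lists of NRSF/REST sites were searched for sites that overlap it or lie at most 10 kb from either end, and where there was none the distance to the nearest site was taken. The cells were H295R/TR SF-1, a subclone of the human adrenocortical carcinoma line H295R in which doxycycline switches on extra SF-1 on top of the cells' own. NRSF/REST was immunoprecipitated with an antibody and sequenced from 1 chromatin sample without doxycycline (basal SF-1 dosage, 5323 sites) and from 1 sample of cells kept in doxycycline for 3 days (increased dosage, 5059 sites). The doxycycline concentration is written differently in the labels and in the methods and is not given here. The labels also describe 2 libraries of input DNA, not analysed here. As there is 1 library per dosage and all cells come from 1 subclone, no value has a replicate check, no test was made, and a difference between the dosages describes these 2 libraries only. The lists give position, width, an order number and a score that is 1000 for every site. What the order number stands for is not stated. Neither depth nor binding strength is therefore known, and lists of sites do not allow a check of the cells against marker genes.

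NRSF/REST is a zinc finger protein that represses neuronal genes in cells that are not neurons, by holding co-repressor complexes at a long DNA element called RE1. SF-1 is a nuclear receptor of the adrenal cortex and gonads that activates the genes of steroid production. In the adrenal cortex, ACTH acts through its receptor to raise cholesterol delivery to mitochondria by StAR, where CYP11A1 makes pregnenolone, and the later enzymes turn it into aldosterone, cortisol and androgens. Aromatase, the product of CYP19A1, makes oestrogens and is best known from the gonads and placenta.

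The sequences that carry the result are the NRSF/REST consensus at the nearest site of each gene, and the same letters where they lie beside a gene with no site. The consensus was searched on both strands as CTGTCC and GGTGCTG, 2 bases apart, with at most 2 mismatches in the 13 fixed bases. The nearest sites of CYP11B1 and CYP11B2 held it without a mismatch and are described by position further on. The others are written 5′ to 3′ from hg19, on the strand of the consensus, with 3 flanking bases on each side and the positions of the 13 fixed bases in capitals. A substitution gives the consensus base, its position counted from 1 at the C of CTGTCC, and the base of the site.
CYP11A1, site in CCDC33, chr15:74583990-74584010, minus strand, no mismatch: ctgCTGTCCttGGTGCTGaaa
HSD3B2, site in TBX15, chr1:119471767-119471787, plus strand, no mismatch: cctCTGTCCatGGTGCTGatt
CYP17A1, site in NT5C2 at the increased dosage, chr10:104935514-104935534, plus strand, G3A: cccCTATCCagGGTGCTGagg
CYP21A2, site in TNXB, chr6:32073387-32073407, minus strand, T4A and G12C: gccCTGACCttGGTCCTGccc
NR5A1, no site here, chr9:127241667-127241687, plus strand, no mismatch: aatCTGTCCagGGTGCTGgcc
CYP21A2, no site here, chr6:31999937-31999957, plus strand, G12A: cctCTGTCCcaGGTACTGagc
CYP19A1, no site here, chr15:51529198-51529218, minus strand, G12C: cacCTGTCCtaGGTCCTGgct
The sites in MC2R and near CYP19A1 did not hold the consensus. Their best match had 4 mismatches, but both parts of it were present at other distances, each with at most 1 mismatch, and the capitals below mark these parts. Further pairs, not printed, were 14 bases apart in the MC2R site and 11 and 3 bases apart in the site at SCG3. Counting pairs 0 to 20 bases apart, 2 included, the nearest sites with a pair numbered 7 at the basal and 9 at the increased dosage. With the consensus they numbered 5 and 6, so at the increased dosage such pairs were not limited to the MC2R and SCG3 sites.
CYP19A1, site at SCG3, chr15:51973710-51973730, minus strand, parts 8 bases apart: CTGTCCgccctgtgGGTGCTG
MC2R, chr18:13900821-13900833, minus strand, parts 0 bases apart: CTGTCCAGTGCTG

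Of the 10 genes, 3 held a site, namely CYP11B1, CYP11B2 and MC2R. Each of these had 1 site, which lay inside the gene, and it was listed at both dosages. The other 7 genes, among them NR5A1 itself, had none inside or within 10 kb at either dosage. Of all protein-coding genes, 13.9% had such a site at basal dosage (95% Wilson interval 13.4 to 14.4) and 13.6% at increased dosage (13.1 to 14), with 10.5% at both. A site overlapped the gene itself in 9.91% of protein-coding genes at the basal and 9.74% at the increased dosage. These intervals cover counting error only. The share of 3 in 10 lay above these shares but rests on few genes, and CYP11B1 and CYP11B2 are neighbouring copies that are not independent of each other. Most of the 10 genes are short, with a median length of 8.2 kb over the 10 genes against 27.2 kb over all protein-coding genes. Among protein-coding genes of at most 10 kb, 7.97% had a site in the basal list and 7.8% in the increased list, and of the 6 such genes described here CYP11B1 and CYP11B2 had one.

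**Figure D1:**
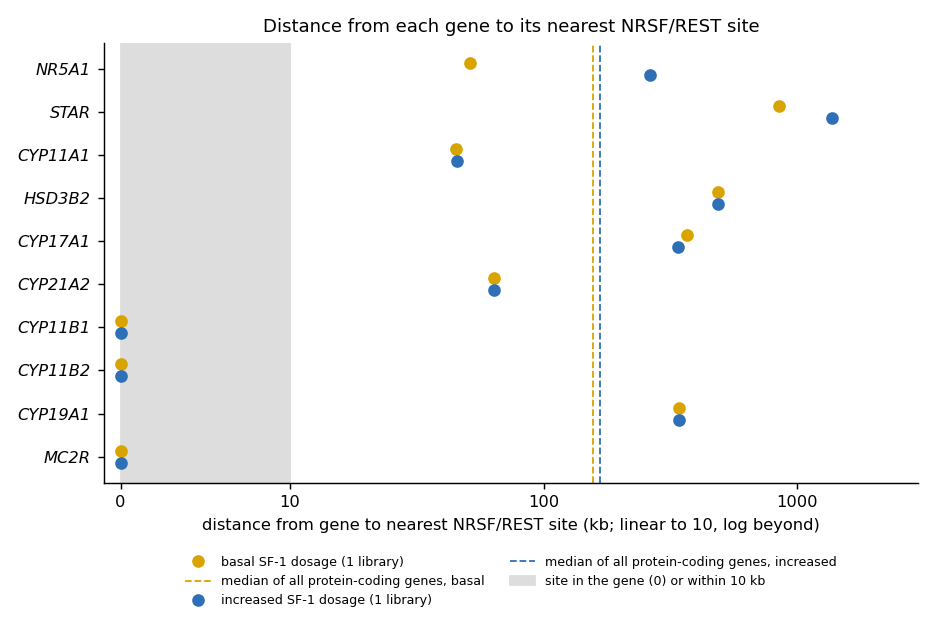
Distance in kb from each of the 10 genes to its nearest NRSF/REST site at the basal (yellow) and increased (blue) SF-1 dosage, 1 library each, on an axis that is linear to 10 kb and logarithmic beyond; dashed lines mark the medians of all protein-coding genes. CYP11B1, CYP11B2 and MC2R sit at 0, CYP11A1 and CYP21A2 lie between 45.4 and 63.9 kb, and STAR is the farthest at both dosages.

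CYP11B1 encodes the enzyme of the last step of cortisol synthesis, and CYP11B2 encodes aldosterone synthase. Both genes lie on chromosome 8 on the minus strand, CYP11B1 at chr8:143953772-143961262 and CYP11B2 at chr8:143991975-143999259. The CYP11B1 site was 449 bp wide at basal dosage (chr8:143955651-143956099) and 499 bp wide at increased dosage (chr8:143955651-143956149). The CYP11B2 site was 649 bp wide at basal dosage (chr8:143993151-143993799) and 599 bp wide at increased dosage (chr8:143993151-143993749). Both sites thus kept their left boundary at the 2 dosages, and their widths differed by 1 step of 50 bp in opposite directions. Of all sites in the list, 63.7% were narrower than the CYP11B1 site and 81.1% narrower than the CYP11B2 site in the basal list, and 68% and 76.4% in the increased list.

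The sites in CYP11B1 and CYP11B2 lay at the same place in the 2 genes. Each covered the boundary between intron 8 and exon 9, the last exon, and each held the consensus without a mismatch on the strand of the gene. The match ran from 143955897 to 143955911 in CYP11B1 and from 143993504 to 143993518 in CYP11B2, in both genes with 9 bases in intron 8 and 6 bases in the coding part of exon 9. It began 5351 bp from the 5′ end of CYP11B1 and 5741 bp from that of CYP11B2, and it lay at most 54 bp from the midpoint of the site. The 2 genes are copies of each other. Their canonical transcripts with introns were identical in 93.3% of the bases that aligned, and the match with 200 bases on each side in 86.2%, while all 15 bases of the match itself were the same. Nevertheless, most exact words in the sites occurred once in hg19. Of the 32-base words in the CYP11B1 site, 97.4% occurred once in hg19 at the basal and 97.6% at the increased dosage, and in the CYP11B2 site 98.2% and 98.1%. In the match with 100 bases on each side, 94.6% of the 32-base words were unique, in CYP11B1 and in CYP11B2 alike. With words of 50 bases all positions of both sites were unique. Whether reads were placed at the right copy was not tested. The protein-coding gene GML is annotated on the opposite strand across both sites, so the sites lie inside this gene as well.

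A further site with the consensus without a mismatch lay between genes 25.5 kb upstream of CYP11B2, with a width of 699 bp at the basal and 749 bp at the increased dosage. CYP11B1 and CYP11B2 therefore each had 3 sites within 100 kb at both dosages, the site inside the gene included. At least 3 sites so placed were found for 5.04% of protein-coding genes in the basal list and 4.88% in the increased list. None of the other 8 genes had more than 2.

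**Figure D2:**
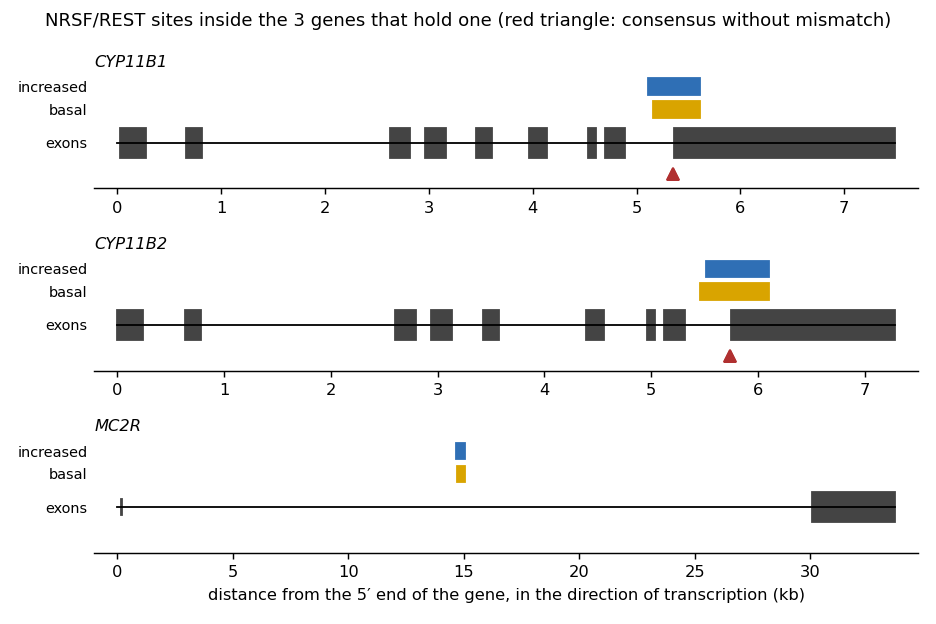
Exons of the canonical transcript (dark boxes, in kb from the 5′ end of the gene in the direction of transcription) with the NRSF/REST site at each dosage (yellow, basal; blue, increased) in CYP11B1, CYP11B2 and MC2R; red triangles mark a consensus without mismatch. The sites of CYP11B1 and CYP11B2 cover the start of exon 9 and hold the consensus there, and the MC2R site lies in the middle of intron 1 and holds none.

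MC2R, the ACTH receptor gene, had a site of another kind. The gene lies at chr18:13882043-13915706 on the minus strand, and the site lay in its long first intron, from 14707 to 15055 bp after the 5′ end at basal dosage (349 bp wide) and from 14657 to 15055 bp at increased dosage (399 bp). It was near the middle of the list in width, with 52% and 57% of sites narrower. The site had no match to the consensus within 2 mismatches, and neither did most sites, since 40.7% of all sites held one at the basal and 42.1% at the increased dosage. The nearest match with 2 mismatches in the gene lay 12.2 kb away from the site. The consensus parts at other distances printed above were searched for after the lists had been seen. Such a pair, 0 to 20 bases apart but not 2, was found in 24.8% of the sites without the consensus at the basal dosage (95% Wilson interval 23.3 to 26.3), against 7.88% of windows of the same width 10 kb upstream of them (6.99 to 8.87). Of the 32-base words in the MC2R site, 77% occurred once in the genome at the basal and 69.8% at the increased dosage, against 88.9% in the whole gene. With words of 50 bases the shares were 100% and 94%, against 97.2% in the gene. Whether repeated sequence had a part in this site was not tested.

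NR5A1 lies on chromosome 9 (127243515 to 127269699, minus strand). Its nearest site at the basal dosage was 51.2 kb upstream, in intron 2 of NR6A1, the gene of a related nuclear receptor. This site was only 149 bp wide and number 4614 of 5323 in the order of the list, and no site of the increased dosage overlapped it. At the increased dosage the nearest site was 263.7 kb upstream, in exon 1 of NR6A1, 349 bp wide, and a basal site overlapped it. The step from 51.2 to 263.7 kb therefore rested on 1 narrow site, and with the widest 50% of sites the distance was 263.7 kb at both dosages. Neither site held the consensus, with 5 mismatches at best. At basal dosage 26.2% of all protein-coding genes lay nearer to a site than NR5A1, and at increased dosage 63.1%.

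The sequence beside NR5A1 held the consensus nevertheless. A match without a mismatch, printed above, lay 1831 bp beyond the 3′ end of NR5A1 and 802 bp from ADGRD2, the next gene. The nearest site was 79.2 kb away from it at the basal and 291.7 kb at the increased dosage. Of the 816 matches without a mismatch in the genome, 74.5% were in a basal site (95% Wilson interval 71.4 to 77.4) and 74.8% in a site of the increased dosage (71.7 to 77.6), so the match beside NR5A1 belonged to the minority with none. Its sequence with 100 bases on each side was unique throughout in words of 32 bases. Matches with 1 mismatch were in a site in 12.1% of 8057 cases at the basal and 11.9% at the increased dosage, and those with 2 mismatches in 0.898% and 0.856% of 87405 cases.

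Over the 10 genes, the gene and 10 kb on each side held the consensus with at most 2 mismatches in every case, but so did 83.6% of all protein-coding gene regions. Without a mismatch it was in the regions of NR5A1, CYP11B1 and CYP11B2, compared with 3.24% of all protein-coding gene regions. The matches in CYP11B1 and CYP11B2 that lay in a site were the 2 without a mismatch. The regions of these genes held 2 and 3 further matches with 2 mismatches, none of them in a site, and none of the matches in the other 8 regions lay in one.

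STAR, which encodes the protein that carries cholesterol into mitochondria, was the gene farthest from any site. The nearest site was 845.2 kb upstream in the basal list, in TM2D2, and 1364 kb upstream in the increased list, 69859 bp from ADAM18. Both were narrow (149 and 99 bp) and listed at 1 dosage only, and neither held the consensus. With the widest 50% of sites the basal distance was 1764 kb. As many as 91.9% of protein-coding genes lay nearer to a site at the basal and 96.7% at the increased dosage. No site lay within 500 kb of STAR at either dosage.

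CYP11A1, the side-chain cleavage enzyme gene that opens steroid synthesis, had its nearest site 45.4 kb downstream at the basal and 45.6 kb at the increased dosage. This site in intron 10 of CCDC33 was among the widest of the series, at 1349 and 1199 bp, wider than 99.1% and 98.1% of the sites, and it stood at number 21 and 23 of the lists. A second wide site with the consensus without a mismatch lay in intron 3 of CCDC33, 71.5 kb from CYP11A1, 1399 bp wide at the basal and 1549 bp at the increased dosage. Both sites lay inside CCDC33, with no other protein-coding gene between it and CYP11A1. Among all protein-coding genes, 24.6% lay nearer to a site than CYP11A1 at the basal and 24.1% at the increased dosage.

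HSD3B2 encodes the dehydrogenase that turns pregnenolone into progesterone. Its nearest site was the same at both dosages, 485.1 kb upstream in intron 2 of TBX15, 999 bp wide and with the consensus without a mismatch. It was the 1 site within 500 kb of HSD3B2 at each dosage, and 2 protein-coding genes lay between. Nearer to a site lay 81.4% and 80% of protein-coding genes at the basal and increased dosage.

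CYP17A1 encodes the hydroxylase and lyase that leads to cortisol and androgens. Its nearest site was 368.4 kb downstream in the basal list, where MFSD13A and ACTR1A overlap (399 bp), and 338.2 kb upstream in the increased list, in intron 2 of NT5C2 (99 bp). The first was also overlapped by a site of the increased dosage, whereas the second was listed at the increased dosage alone and has the smallest width in the lists. The first had 3 mismatches to the consensus and the second 1.

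CYP21A2 encodes the hydroxylase missing in the most common form of congenital adrenal hyperplasia and lies on chromosome 6 (32006104 to 32009421, plus strand). Its nearest site was the same at both dosages, 63.9 kb downstream in intron 1 of TNXB, 199 bp wide, with 2 mismatches to the consensus. A site was nearer to 29.7% of protein-coding genes at the basal and 28.9% at the increased dosage. With the widest 50% of sites, which leaves this site out, the distance was 378.3 and 378.2 kb. The gene has a near-identical pseudogene beside it, and only 28% of the 32-base words in the gene and 30.3% of those in the gene and 10 kb on each side occurred once in hg19, against 73.7 to 96% in the regions of the other 9 genes. The match with 1 mismatch in intron 34 of C4B, 6150 bp upstream of CYP21A2, had no unique word of 32 or 50 bases in it or in 100 bases on each side. How reads of repeated sequence were treated is not given in the sources used here, and the part of this in the lack of a site was not tested.

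CYP19A1, the aromatase gene, is the longest of the genes at 130545 bp and had 12 matches to the consensus in its region, but no site. Its nearest site was the same at both dosages, 342.5 kb upstream at the edge of SCG3, the gene of a secretogranin of neuroendocrine granules. This site was 699 bp wide, stood at number 52 of the basal and 47 of the increased list, and held the 2 consensus parts 8 bases apart, both without a mismatch. With sites that hold the consensus only, the distance was 1445 kb at both dosages. The match with 1 mismatch in CYP19A1 crossed the boundary of intron 2 and coding exon 3. It lay 444.1 kb from any site, and its sequence with 100 bases on each side was unique in words of 32 bases.

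**Figure D3:**
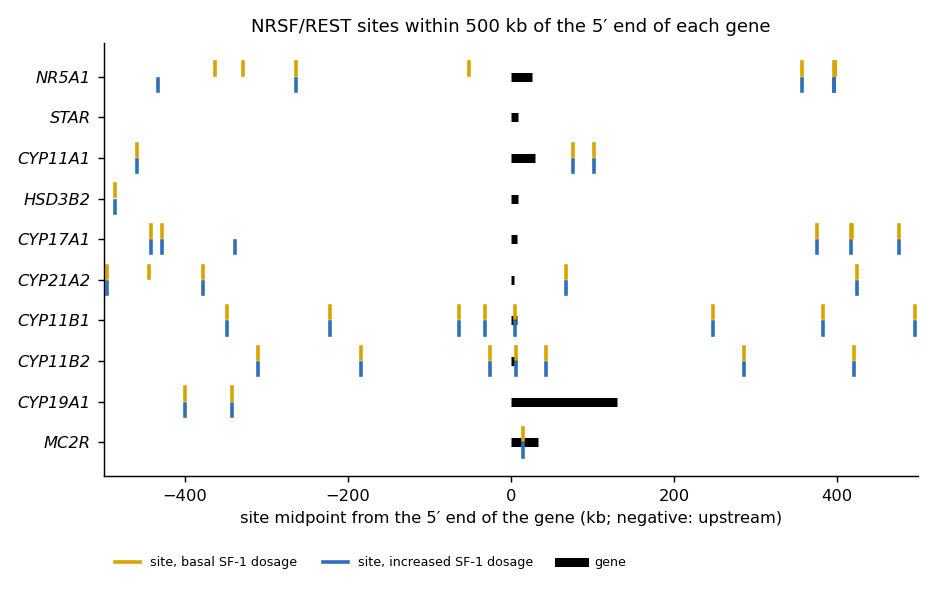
Midpoints of the NRSF/REST sites within 500 kb of the 5′ end of each gene (kb, negative is upstream; yellow, basal; blue, increased SF-1 dosage; black bar, the gene). CYP11B1 and CYP11B2 share a run of sites listed at both dosages, STAR has none in the window, and NR5A1 has a site 51.2 kb upstream at the basal dosage only.

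Taking the genes as a group, the median distance to the nearest site was 57.5 kb at the basal and 163.8 kb at the increased dosage, beside 157.2 and 166.2 kb over all protein-coding genes. With 10 genes the median is the mean of the middle pair, and its difference between the dosages came from the narrow basal site nearest to NR5A1. With the widest 50% of sites it was 303.1 kb at both dosages. The nearest site was the same at both dosages, by an overlap of at least 1 bp, for 7 of the 10 genes, and it differed for NR5A1, STAR and CYP17A1. This count was not made over all protein-coding genes, so it does not set these genes apart. The nearest site held the consensus with at most 2 mismatches for 5 genes in the basal list (CYP11A1, HSD3B2, CYP21A2, CYP11B1 and CYP11B2) and for 6 in the increased list, where CYP17A1 was added. Of all sites, 40.7% held it at this limit in the basal and 42.1% in the increased list, and 10 genes are few to set beside these shares. The sites that were nearest at 1 dosage only and had no overlapping site at the other were all 99 or 149 bp wide, against a median width of 299 bp in either list.

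**Figure D4:**
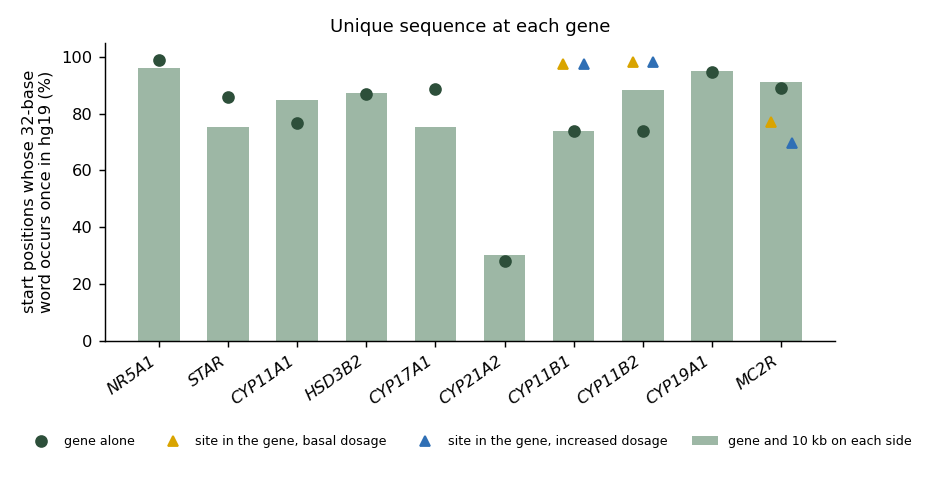
Share of start positions whose 32-base word occurs once in hg19, in percent, in the gene and 10 kb on each side (bars), in the gene alone (dark points) and in the sites inside genes (triangles; yellow, basal; blue, increased). CYP21A2 stands at 30.3%, the other bars between 73.7 and 96%, and the sites of CYP11B1 and CYP11B2 above 97%.

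The genes that work beside these were taken as 4 further lists, with 83 genes in all. Of these, 17 had a site inside or within 10 kb in the basal list, 13 in the increased list and 11 in both. The count was 6 and 4 of 22 other steroid enzymes and redox partners, 2 and 1 of 21 genes of cholesterol supply, 6 and 6 of 20 genes of ACTH, angiotensin and potassium signalling, and 3 and 2 of 20 transcription factors of the steroidogenic lineage, at the basal and increased dosage in this order. Set beside the 13.9 and 13.6% of all genes, cholesterol supply lay below at both dosages and the transcription factors lay close to these shares. The other steroid enzymes and the signalling list lay above at both, all on counts of at most 6 genes. With sites in the gene only, the enzymes fell to 3 and 2 of 22, beside 9.91 and 9.74% of all protein-coding genes. The median gene length of these lists was 40.1, 27.7, 51.2 and 25.4 kb, against 27.2 kb over all protein-coding genes. The shares were not matched for gene length.

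Among the enzymes, POR, the electron donor of the microsomal P450 enzymes, had a site in intron 1 at both dosages (399 and 299 bp). STS, the steroid sulfatase gene, had 2 sites in the gene at both dosages, and the wider (549 bp at each dosage) held the consensus with 1 mismatch. The sites counted for FDXR, the reductase that feeds electrons to mitochondrial P450 enzymes, lay in GRIN2C, 6620 bp from FDXR at the basal and 9820 bp at the increased dosage. The site counted for HSD11B2, which inactivates cortisol, lay in ATP6V0D1, 9595 and 9645 bp from the gene. SRD5A2, a steroid reductase gene, and H6PD, which supplies NADPH in the endoplasmic reticulum, had a site at the basal dosage only, each 199 bp wide. In cholesterol supply, a narrow site of 99 bp was listed in NPC1 at the basal dosage only, and 1 of 199 bp in ABCA1 at the increased dosage only.

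The widest sites of the 4 lists were in ADCY5 and CACNA1H. ADCY5, an adenylyl cyclase gene, had a site of 1099 bp at both dosages that stood at number 49 of both lists and held the consensus without a mismatch. CACNA1H, the gene of a T-type calcium channel of aldosterone-producing cells, had a site of 1199 bp at the basal and 949 bp at the increased dosage in intron 2, also with the consensus without a mismatch, and a second site of 199 bp at the increased dosage only. The TASK potassium channel genes KCNK9 and KCNK3 both had a site at both dosages. In KCNK9 it lay in intron 1 and held the consensus without a mismatch (499 and 649 bp), and in KCNK3 it covered coding exon 1 near the 5′ end (399 and 749 bp). PDE11A, a phosphodiesterase gene, had 3 sites at the basal and 2 at the increased dosage, between 99 and 299 bp wide. The 1 site common to the dosages lay in RBM45, 3935 and 3985 bp from PDE11A, and the sites inside PDE11A were each listed at 1 dosage only. KCNJ5 had a site of 99 bp at the basal dosage only, and PRKACA, the catalytic subunit of protein kinase A, 1 of 99 bp at the increased dosage only.

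Of the transcription factors, NR4A1, a nuclear receptor that ACTH induces in the adrenal, had a site in the gene at both dosages with 2 mismatches to the consensus (499 and 399 bp). NR2F2 was counted at the basal dosage only, through a site of 99 bp.

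The known neuronal and neuroendocrine targets of NRSF/REST served for comparison. Of 13 genes of granins and prohormone processing, 10 had a site inside or within 10 kb at both dosages, among them CHGA, CHGB, SCG2 and SCG3, and the median distance of the list was 0. Of 9 genes of voltage-gated sodium channel alpha subunits, 4 had one at the basal and 7 at the increased dosage, and their median length was 164.6 kb.

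**Figure D5:**
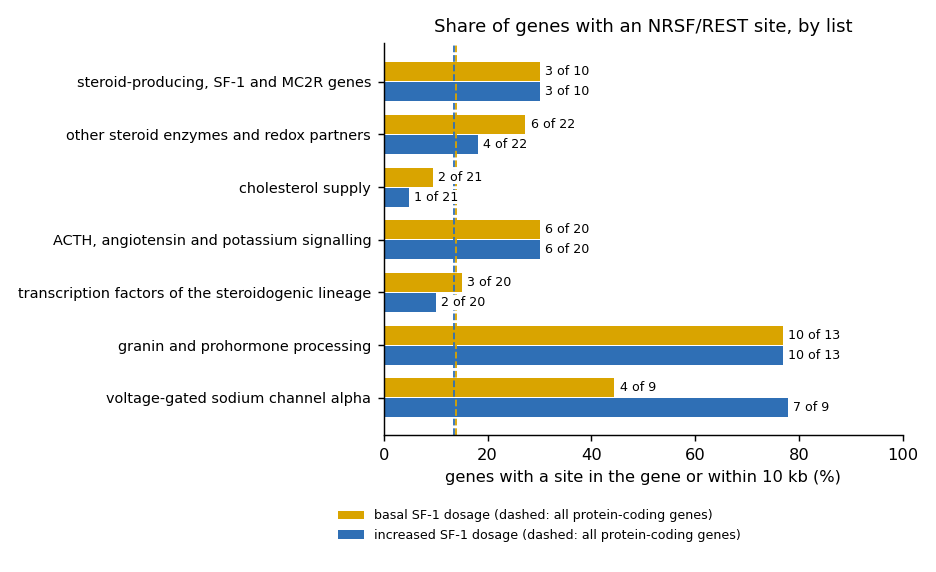
Percent of genes with an NRSF/REST site inside the gene or up to 10 kb away, for the 10 genes and 6 further lists, at the basal (yellow) and increased (blue) dosage, with the counts at the bars and the shares of all protein-coding genes as dashed lines. The granin list reaches 10 of 13 genes at both dosages, the 10 steroid, SF-1 and MC2R genes reach 3 of 10, and cholesterol supply stays below the dashed lines.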

How the data were processed

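The deposited files are 2 lists of NRSF/REST sites, 1 per SF-1 dosage, on hg19. The authors' processing notes name CASAVA 1.6 and hg19, and the methods name ELAND for mapping. The peak caller and its settings are stated for SF-1 sites only. The deposited score is 1000 for every site and was not used. Depth is unknown, and no read count is in the lists. Widths follow from boundaries on 50-bp steps.

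Sites were set against GENCODE release 44 mapped to hg19 with Python 3.11.15, numpy 2.4.6 and pysam 0.24.0. Distance runs between the nearest edges of site and gene, and exons are those of the canonical transcript. Wilson intervals came from scipy 1.17.1 and the alignment of CYP11B1 with CYP11B2 from Biopython 1.88. Words of 32 and 50 bases were counted over both strands of the genome. On simulated data, distances were right in 200 of 200 cases for each list, and the consensus was found in 200 of 200. Samples were grouped by their labels, and no test was made, with 1 library per dosage. All 10 genes are named, as is every gene of the 4 steroid lists with a site, the gene at each nearest site, and the first 4 granin genes with a site in list order. A few items these rules would name are not reported here. The genes and lists were chosen with earlier results of these data known. Alternatives were other windows, site sets, overlap rules, mismatches and word lengths. The first 50% of each list by order number and consensus parts at other distances were chosen later, with the data in view.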

Additional observations from a re-analysis of the deposited data

How the results depend on the processing

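The number of the 10 genes with a site was 3 at both dosages in the gene only and within 2 kb, and 6 and 5 within 100 kb at the basal and increased dosage. The wider window also raised the count among all 20163 protein-coding genes, from 2805 and 2736 within 10 kb to 7774 and 7536. CYP11B1 and CYP11B2 were counted under every alternative run, while MC2R was not counted with sites that hold the consensus only, from the 5′ end only, or, at the basal dosage, in the first 50% of the list by order number. Of all protein-coding genes, those with a site numbered 5219 and 5100 within 50 kb, 7774 and 7536 within 100 kb, 1683 and 1593 with the widest 50% of sites, 1422 and 1409 with consensus sites only, 1663 and 1591 with the first 50% by order, and 1248 and 1193 from the 5′ end only. The median distance of the 10 genes was 303.1 kb at both dosages with the widest 50% of sites, and 379.3 and 334.4 kb with consensus sites only, so the gap between the dosages (57.5 against 163.8 kb) was not seen with the widest sites. With the widest 50% of sites the basal distance was 263.7 kb for NR5A1 and 1764 kb for STAR, and CYP21A2 was 378.3 and 378.2 kb from a site. With consensus sites only it was 330.7 kb for NR5A1 and 1764 kb for STAR at the basal dosage, and 1445 kb for CYP19A1 and 2377 kb for MC2R at both. The regions that held the consensus fell from 10 to 5 at 1 mismatch and to 3 at none. In the gene only, 3 and 2 other steroid enzymes had a site, 1 cholesterol gene at the basal dosage and 1 transcription factor at the basal dosage. Within 50 kb there were 4 and 3 cholesterol genes, 5 transcription factors at the basal dosage and 7 sodium channel genes at the basal dosage. The causes were not tested. Unknown depth and a single library per dosage limit every comparison of the dosages.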

Other observations

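Chosen after the values had been seen, the gene families of CYP11B1, CYP11B2 and MC2R were searched in the same way, so their counts are no independent evidence. Of 56 protein-coding cytochrome P450 genes, 11 had a site inside or within 10 kb in the basal list and 10 in the increased list, CYP11B1 and CYP11B2 included, beside 13.9 and 13.6% of all protein-coding genes, the difference being a site of 149 bp in intron 1 of CYP2B6. CYP4A11 and CYP4A22, fatty acid hydroxylase genes on chromosome 1, each had a site in intron 11 at both dosages with the consensus without a mismatch, 299 and 249 bp wide at basal and 199 and 349 bp at increased dosage. On chromosome 19, CYP4F22 and CYP4F12 had a site in the gene at both dosages with 2 mismatches to the consensus, CYP4F8 had 1 in the gene and 1 without a mismatch 1102 bp away, and CYP4F3 was counted through the latter at 8658 and 8708 bp. CYP27B1, which makes active vitamin D, was counted through a site in MARCHF9 with the consensus without a mismatch, and CYP39A1 through a narrow site 7768 and 7818 bp away with none.

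Of the 5 melanocortin receptor genes, MC1R, MC2R and MC3R had a site inside or within 10 kb at both dosages, beside 10.5% of all protein-coding genes. The sites counted for MC1R lay in TUBB3, a neuronal tubulin gene, and the nearest of these at the increased dosage was 3420 bp from MC1R. The MC3R site lay 4089 bp from the gene at the basal and 4139 bp at the increased dosage, and like the site in MC2R it did not hold the consensus.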
